A study of Homo sapiens with 12 samples.

Results

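Untreated HepG2C3A cells grown in a culture microsystem were compared with the same line grown in Petri dishes, across all measured genes. HepG2C3A is an established human hepatoma line kept for its hepatocyte-like functions. Its RNA was hybridised to arrays of the Affymetrix type Human Gene 1.0 ST, and 6 of the 12 arrays of the study belong to this comparison, 3 microsystem controls and 3 Petri controls. Both groups were cultured for 96 h without acetaminophen, and cells were detached with trypsin before total RNA was extracted. The other 6 arrays hold microsystem and Petri cells exposed to acetaminophen for 72 of the 96 h, at a dose not given in the sources used here. The labels do not describe the microsystem's geometry, its flow, its medium or its cell number. Nor do they say that the 3 replicates of a group were grown separately. The spread behind the p-values is therefore that of these samples, and it may be technical only.

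Members of the comparison were the genes with a probe set that carries exactly 1 symbol, each represented by its brightest probe set over the 12 arrays. These made 18404 genes, of which 13199 passed a filter on dim signal (a value over the 40th percentile of the 32321 probe sets of an array, on 3 arrays or more) and 5205 did not. Values are log2 intensities. A difference is the microsystem mean minus the Petri mean on that scale, so that 1 means a doubling, with n = 3 arrays per culture. Errors are SE from limma's fit of all 12 arrays, which pools the spread of treated and untreated groups and moderates it across genes. Where a gene spread widely within the untreated arrays, they can understate the spread of the values printed. A gene is called higher or lower in the microsystem when limma's moderated test gave a Benjamini-Hochberg adjusted p under 0.05 over the 13199 genes. Comparing levels between genes is not possible on these arrays, because probes differ in brightness.

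Hepatoma cells in a dish lie under a still layer of medium, and several of their regulators respond to oxygen, nutrients, foreign chemicals and mechanical load. Hypoxia-inducible factors (HIF) switch on glycolytic enzymes and angiogenic genes when oxygen is short. The aryl hydrocarbon receptor and NRF2 switch on drug metabolism and antioxidant genes, SREBP factors switch on sterol and fatty acid synthesis, and YAP with its TEAD partners responds to cell spreading and tension. These roles are background and were not measured here.

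The 6 arrays formed 2 compact sets. Correlation over the probe sets ran, for pairs of microsystem control arrays, from r = 0.9914 to 0.9928, for pairs of Petri control arrays from 0.9922 to 0.9942, and for pairs that cross the cultures from 0.9801 to 0.9853. The first principal component of these arrays separated the cultures and took up 77% of their variance. A further 10.2% fell to the second, which spread the microsystem arrays, with scores of 14.9, 0.944 and -18, so that microsystem control 3 lies farthest from its group. Several results that this array moved are also given without it. The median SD of a gene within a group was 0.1225 in the microsystem and 0.1029 in Petri dishes.

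Short regulatory RNAs are described first because their sequences are short enough to show. Of 58 microRNA genes that passed the filter, 0 were higher in the microsystem and 10 were lower, and 51 had a negative difference. The lower share of 17.2% is near the 18.3% of all genes tested, while 26.5% of all genes were higher. The median difference of the microRNA genes was -0.17, against 0.01 for all genes. The probe sets cover the genes or their precursors and do not measure the mature strands. The sequences below, from RefSeq (GRCh38.p14), are the main mature strands of 5 of the 10 lower genes, which were chosen after their values were seen. Capitals mark the seed, bases 2 to 8 from the 5′ end, which pairs with target messages, and no seed is shared among the 5.
hsa-miR-15a-5p: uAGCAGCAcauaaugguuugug
hsa-miR-34a-5p: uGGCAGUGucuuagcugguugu
hsa-miR-365a-3p: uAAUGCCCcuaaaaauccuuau
hsa-miR-106b-5p: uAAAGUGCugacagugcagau
hsa-miR-210-3p: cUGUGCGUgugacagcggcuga

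MIR15A gave log2 values of 4.62, 4.3 and 4.46 in the microsystem and 5.81, 5.54 and 5.44 in Petri dishes, a difference of -1.14 ± 0.21 (adjusted p = 0.000619). MIR34A, a p53 target, gave 4.75, 4.33 and 3.8 against 5.59, 5.05 and 5.37, a difference of -1.04 ± 0.20 (adjusted p = 0.000783). The groups did not overlap in either gene, but all 6 microsystem values lay below the 40th percentile of their arrays, which was between 4.8343 and 4.8747. MIR365A differed by -0.86 ± 0.18 and MIR106B by -0.51 ± 0.11. MIR210, the microRNA best known as a HIF target, differed by -0.25 ± 0.09 (adjusted p = 0.0316), with 6.92, 6.98 and 6.83 in the microsystem and 7.08, 7.2 and 7.2 in Petri dishes. That is a narrow gap, yet each Petri array was above each microsystem array.

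Across all genes, 5926 of 13199 passed the test (44.9%), of which 3504 were higher in the microsystem (26.5%) and 2422 were lower (18.3%). The groups did not overlap for 6921 genes (52.4%), a condition that 3 against 3 arrays can give with an exact permutation p no lower than 0.1. Most differences were small. At least 2-fold and past the test were 614 genes (4.65%), of which 345 were higher (2.61%) and 269 lower (2.04%), and at least 4-fold were 25 higher and 25 lower. Against a null of up to 1.5-fold instead of 0, limma's treat test passed 306 genes higher and 265 lower. The median difference of all 13199 genes was 0.01. Under that null the counts of every gene list below were equal or smaller. The list counts are to be read against these shares. The lists come from general knowledge, some share genes, and each is described by its counts without a test of the list.

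**Figure D1:**
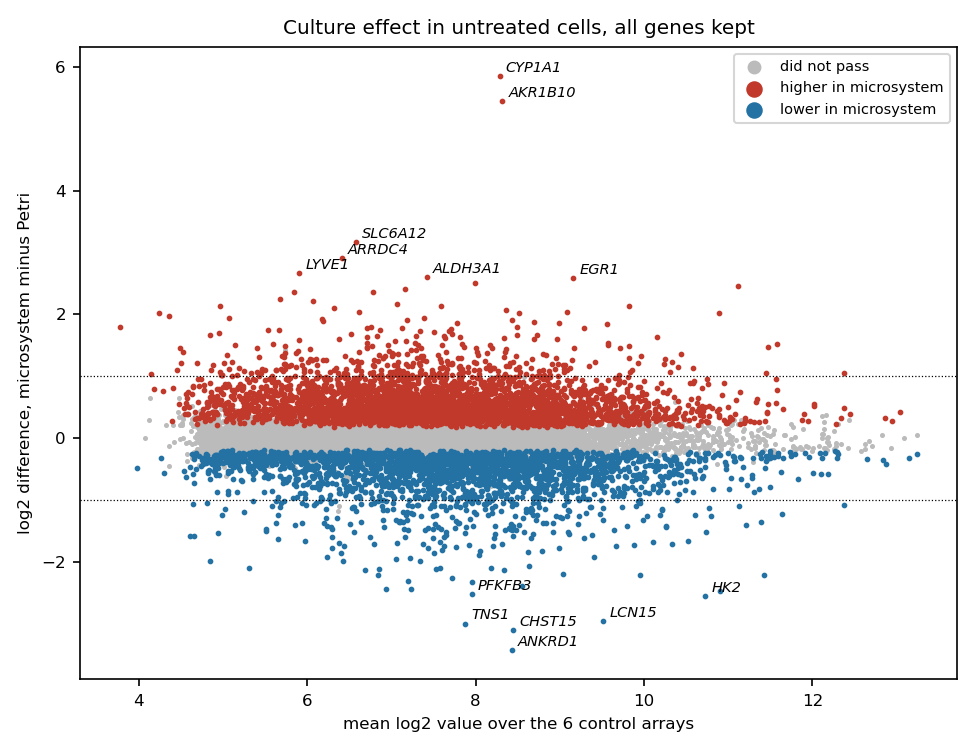
Difference between cultures (log2 microsystem minus Petri, untreated cells, y axis) against the mean log2 level of the gene over the 6 control arrays (x axis), 1 point per gene for 13199 genes, with genes past the adjusted p threshold coloured by direction. CYP1A1 and AKR1B10 lie far above the other genes, at 5.85 and 5.44, and ANKRD1 lies lowest at -3.42.

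The largest rise in the microsystem was that of CYP1A1, the P450 enzyme induced through the aryl hydrocarbon receptor. Its log2 values were 11.27, 11.15 and 11.22 in the microsystem and 5.43, 5.11 and 5.54 in Petri dishes. All microsystem arrays sat close together and far above all Petri arrays, a difference of 5.85 ± 0.13 or 57.9-fold (adjusted p = 1.18e-11). AKR1B10, an aldo-keto reductase and NRF2 target, gave 11.45, 11.15 and 10.5 against 5.71, 5.77 and 5.3, a difference of 5.44 ± 0.25 or 43.4-fold (adjusted p = 1.72e-08). Aldo-keto reductases resemble one another, so their signals may share probes and are uncertain, and likewise CYP3A genes, metallothioneins, SULT1A genes and histones below. The next largest rise was 3.17.

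The next largest rises covered osmolyte uptake, glucose sensing, secreted proteins and drug metabolism. SLC6A12, a betaine transporter, gave 9.47, 8.56 and 6.45 in the microsystem and 4.65, 4.9 and 5.43 in Petri dishes, a difference of 3.17 ± 0.63 (adjusted p = 0.00116). Its microsystem values spread over more than 2 log2 units without touching the Petri values, and the difference was 4.03 without microsystem control 3 and 2.52 without microsystem control 1. LYVE1, a hyaluronan receptor, had the same order of microsystem arrays, with 8.24, 7.43 and 6.05 against 4.72, 4.67 and 4.32. Its difference of 2.67 ± 0.41 became 3.27 without microsystem control 3. ARRDC4, an arrestin-domain gene induced by glucose metabolites, was tight in both cultures at 7.82, 7.74 and 8.04 against 5.06, 4.79 and 5.01 (2.92 ± 0.13). EGR1, an immediate early transcription factor, gave 10.37, 10.52 and 10.45 against 8.37, 7.77 and 7.45 (2.58 ± 0.21). SPP1, which encodes osteopontin, gave 12.42, 12.41 and 12.2 against 10.3, 9.68 and 9.68 (2.46 ± 0.20). The kinase gene SGK2 (2.51 ± 0.20), LRRN4 (2.41 ± 0.19), the prostaglandin reductase gene PTGR1 (2.36 ± 0.19), ALDH3A1 (2.61 ± 0.31) and CYP3A5 (2.36 ± 0.30) complete the 12 largest rises, all with adjusted p at or below 0.000162 except SLC6A12. LYVE1 and PTGR1 lay below the 40th percentile in Petri dishes, so their fold is set in part by dim signal. SLC6A12 in Petri control 1 and ARRDC4 in Petri control 2 were also below it. The Petri values of CYP1A1 were above it but below the medians of their arrays, so its fold also rests on low signal there. In Petri control 3, AKR1B10 and CYP3A5 were below the array median too. The other Petri values of AKR1B10 lay just above their medians, so its fold shares this limit.

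The largest fall was that of ANKRD1, a nuclear ankyrin-repeat protein and YAP target, at 6.4, 5.69 and 8.07 in the microsystem and 9.89, 10.33 and 10.21 in Petri dishes. The Petri arrays agreed closely while the microsystem arrays spread, and the difference of -3.42 ± 0.48 (adjusted p = 8.3e-05) became -4.10 without microsystem control 3. CHST15, a sulfotransferase of chondroitin sulfate, gave 7.01, 6.56 and 7.1 against 10.02, 9.93 and 10.03 (-3.1 ± 0.14), and TNS1, a focal adhesion protein, gave 6.8, 6.16 and 6.18 against 9.51, 9.24 and 9.37 (-2.99 ± 0.18). In both genes the cultures were far apart on each array. LCN15 (-2.96 ± 0.16), the collagen crosslinking enzyme gene LOXL3 (-2.44 ± 0.14), the adhesion receptor gene ADGRD1 (-2.43 ± 0.16), SERPINA11 (-2.38 ± 0.12), FXYD3 (-2.32 ± 0.10), a regulator of the sodium pump, and FAM13A (-2.3 ± 0.16) were lower by at least 4.92-fold. The remaining 3 of the 12 largest falls, HK2, PFKFB3 and NDRG1, belong to glycolysis and the HIF targets.

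**Figure D2:**
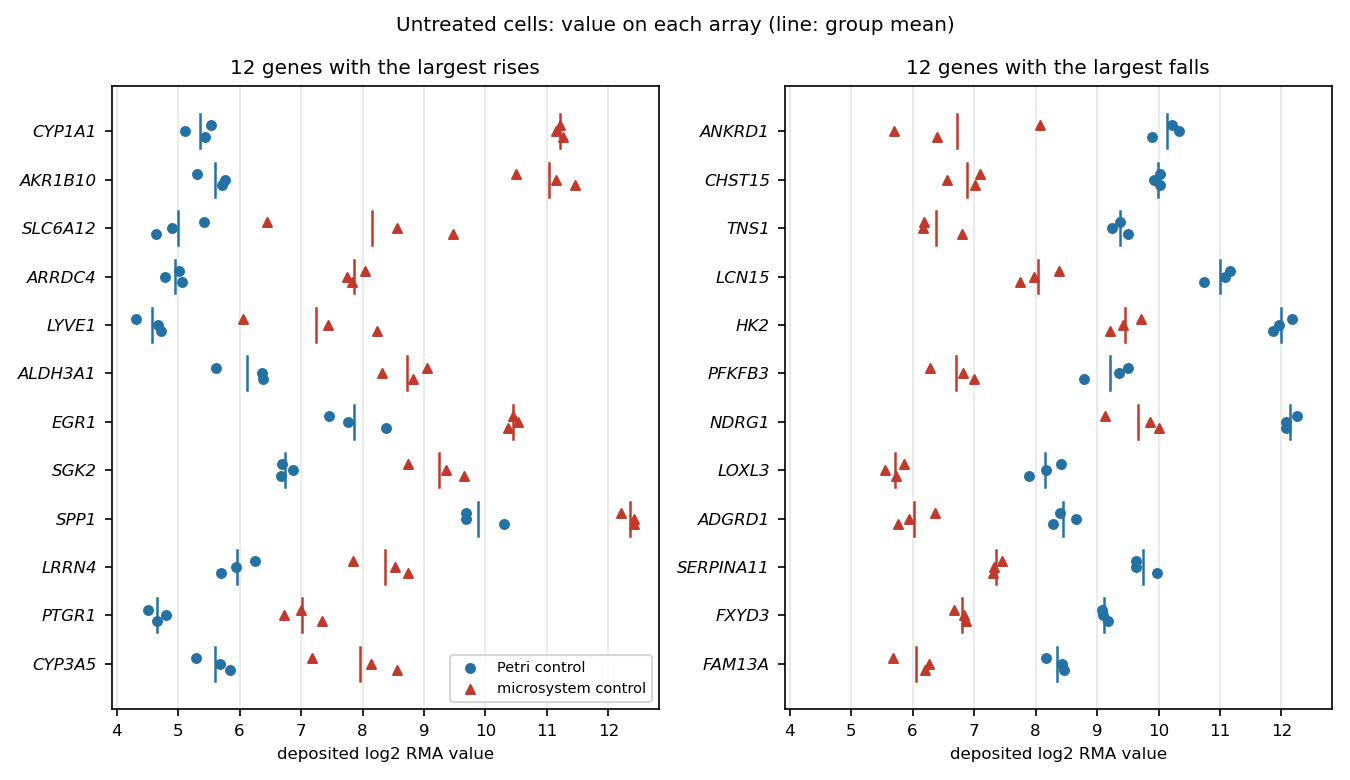
Log2 intensity on each of the 6 control arrays (1 point per array, microsystem and Petri in separate colours, short lines at the group means) for the 12 genes with the largest rises (left) and the 12 with the largest falls (right), with log2 value on the x axis. CYP1A1 lies between 11.15 and 11.27 in the microsystem and between 5.11 and 5.54 in Petri dishes, while the microsystem values of SLC6A12 run from 6.45 to 9.47.

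HIF targets outside glycolysis were mostly lower in the microsystem. Of the list, 25 of 27 listed genes were tested, and of these 1 was higher, 22 were lower and 2 did not pass, 13 of the lower ones by at least 2-fold, with a median difference of -1.01 against 0.01 for all genes. VEGFA, the angiogenic growth factor, gave 9.09, 8.94 and 8.49 in the microsystem and 10.95, 11.06 and 11.15 in Petri dishes, a difference of -2.21 ± 0.14 or 4.63-fold (adjusted p = 1.9e-07). NDRG1, a stress-response protein, gave 10.01, 9.86 and 9.13 against 12.08, 12.08 and 12.25 (-2.47 ± 0.17), and EGLN3, a prolyl hydroxylase that marks HIF for destruction, gave 7.15, 7.21 and 6.95 against 8.9, 8.98 and 9.07 (-1.88 ± 0.10). No microsystem array came within 1 log2 unit of a Petri array in these 3 genes. The nuclear receptor gene RORA (-1.85 ± 0.22), the lysyl oxidase gene LOX (-1.7 ± 0.26) and DDIT4, an inhibitor of mTOR signalling (-1.55 ± 0.30), were also lower. The list also counts HIF1A and EPAS1, genes of the factors themselves. HIF1A, which encodes the oxygen-regulated subunit, was the 1 higher member (0.72 ± 0.10, adjusted p = 8.24e-05), and EPAS1, its relative, was lower (-0.46 ± 0.12). CA12 (-0.14) and AK4 (-0.04) did not pass. HIF1A, EPAS1, CA12 and AK4 lie outside the naming rule and were chosen after their values were seen, as is the case for other genes named below to complete a pathway. With the 1.5-fold null, 11 members were lower.

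Genes of glycolysis and glucose uptake that passed were all lower. Of these genes, 20 of 25 listed ones were tested, and of these 0 were higher, 15 were lower and 5 did not pass, 7 by at least 2-fold, with a median of -0.46. HK2, a hexokinase that traps glucose in the cell, gave 9.2, 9.43 and 9.71 in the microsystem and 11.86, 11.97 and 12.17 in Petri dishes, a difference of -2.55 ± 0.17 or 5.85-fold (adjusted p = 2.26e-07). PFKFB3, which makes the activator of phosphofructokinase, gave 7.0, 6.82 and 6.28 against 8.79, 9.35 and 9.5 (-2.52 ± 0.21), and the glucose transporter gene SLC2A3 gave 9.65, 10.12 and 11.19 against 12.32, 12.52 and 12.74 (-2.21 ± 0.35, and -2.64 without microsystem control 3). The cultures did not overlap in any of the 3, although microsystem control 3 came nearest to the Petri arrays for HK2 and SLC2A3 and lay farthest from them for PFKFB3. The enolase gene ENO2 (-1.42 ± 0.12) and PFKFB4 (-1.23 ± 0.12) followed. Differences were smaller in the abundant enzymes of the lower pathway: GAPDH was lower (-0.31 ± 0.07) and ENO1 (-0.26 ± 0.08), while LDHA (-0.12, adjusted p = 0.326) and PKM (-0.01) did not pass. With the 1.5-fold null, 6 members were lower.

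The core of the hypoxia response element, ACGTG, was searched on both strands in the 250 bases before the start of each gene in RefSeq (GRCh38.p14), which held a promoter for 10404 of the 13199 genes. It occurred in 23% of these, in 11 of 21 HIF list genes with a promoter (52.4%) and in 9 of 19 glycolysis genes (47.4%). Among genes lower by at least 2-fold it occurred in 27%, and among those higher by at least 2-fold in 23.4%. The median GC content was 68% in promoters of the HIF list and 71.2% in those of glycolysis, against 64.8% in all. The motif shares were not adjusted for this composition. The E-box CACGTG contains this core, and a match of 5 bases is a description and not a binding site. The promoters of HK2, ENO2 and ANKRD37, an ankyrin-repeat gene that was lower (-1.59 ± 0.26), show how the core lies in 3 of the lower genes. Matches are in capitals and may read as the reverse complement.
HK2 (chr2:74833877-74834126, plus strand): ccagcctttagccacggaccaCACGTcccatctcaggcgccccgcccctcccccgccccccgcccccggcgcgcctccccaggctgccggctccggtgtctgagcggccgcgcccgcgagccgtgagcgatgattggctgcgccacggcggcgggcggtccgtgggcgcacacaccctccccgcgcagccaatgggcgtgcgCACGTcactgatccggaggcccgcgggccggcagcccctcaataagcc
ENO2 (chr12:6914330-6914579, plus strand): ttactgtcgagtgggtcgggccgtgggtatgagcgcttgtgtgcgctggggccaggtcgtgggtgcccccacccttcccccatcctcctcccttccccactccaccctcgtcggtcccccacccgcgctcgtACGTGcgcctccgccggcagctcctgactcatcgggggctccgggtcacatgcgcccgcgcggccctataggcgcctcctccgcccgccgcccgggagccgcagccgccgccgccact
ANKRD37 (chr4:185396591-185396840, plus strand): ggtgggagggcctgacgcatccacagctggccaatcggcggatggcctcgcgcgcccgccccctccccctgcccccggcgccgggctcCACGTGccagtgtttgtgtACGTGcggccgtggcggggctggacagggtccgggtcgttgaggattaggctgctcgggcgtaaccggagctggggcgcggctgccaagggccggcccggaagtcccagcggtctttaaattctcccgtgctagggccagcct

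**Figure D3:**
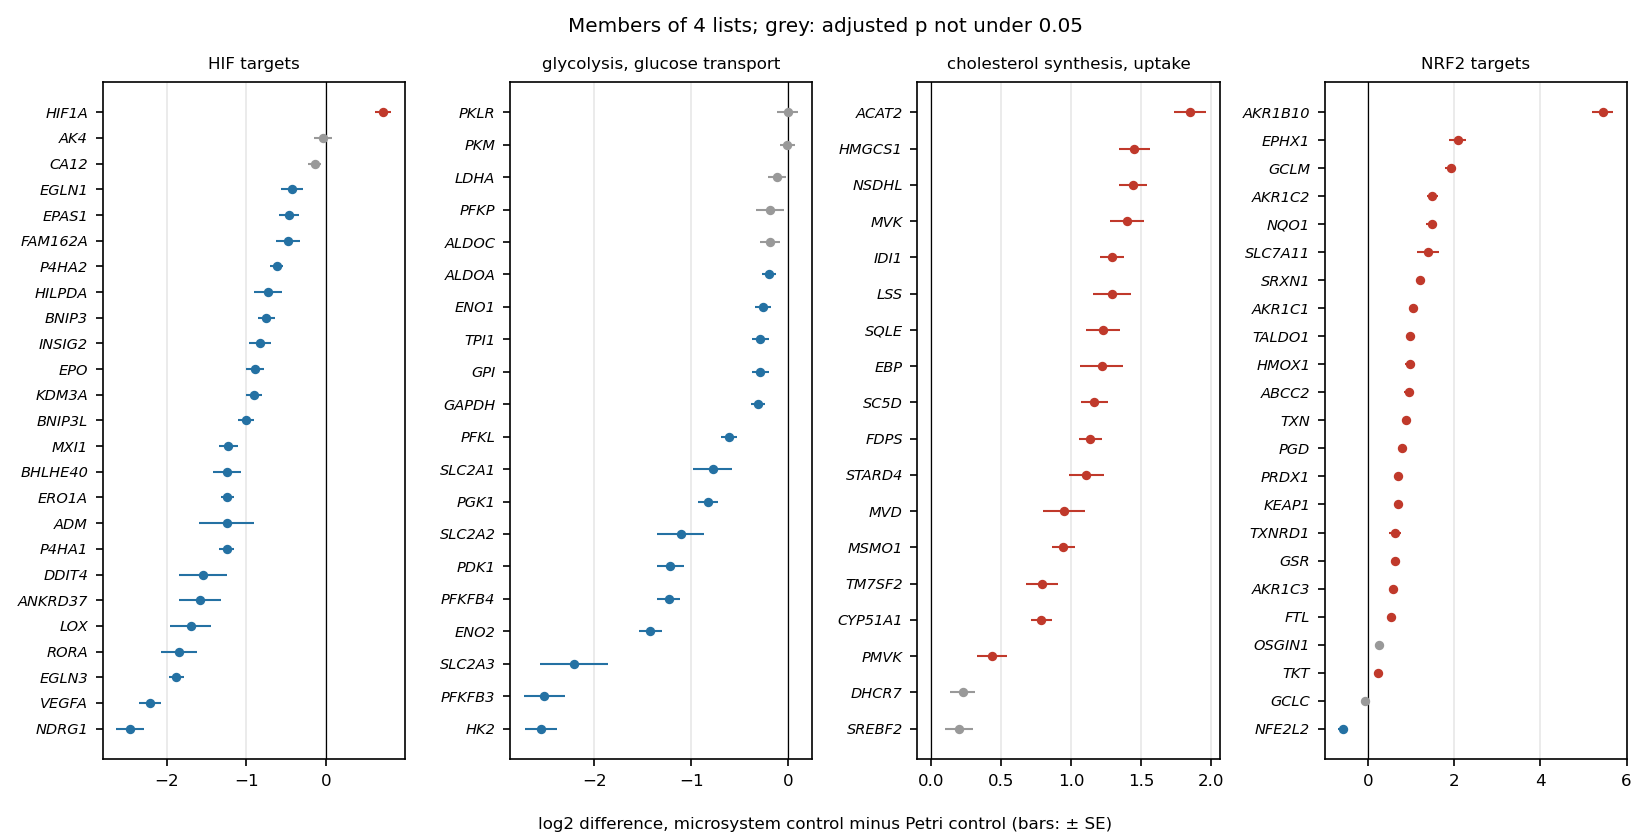
Difference between cultures (log2 microsystem minus Petri, untreated cells) of each tested member of 4 gene lists, 1 point per gene with its SE as a bar, in grey where the gene did not pass the test. The HIF and glycolysis members lie mostly left of 0 and the cholesterol and NRF2 members mostly right of it, with medians of -1.01, -0.46, 1.15 and 0.88.

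Phase I drug metabolism, the oxidation and hydrolysis of foreign compounds, held the largest single rise but was mixed as a list. Of its genes, 21 of 32 listed ones were tested, and of these 11 were higher, 4 were lower and 6 did not pass, and 7 were higher by at least 2-fold. Beside CYP1A1, the list's higher members included ALDH3A1, an aldehyde dehydrogenase, at 8.82, 8.31 and 9.05 in the microsystem and 6.38, 6.36 and 5.61 in Petri dishes (2.61 ± 0.31), CYP3A5 at 8.56, 8.15 and 7.18 against 5.84, 5.68 and 5.29 (2.36 ± 0.30) and EPHX1, an epoxide hydrolase, at 9.74, 9.52 and 8.95 against 7.41, 7.26 and 7.3 (2.08 ± 0.20). No values overlapped, and microsystem control 3 was the lowest microsystem array for CYP3A5 and EPHX1. CYP3A4, the main P450 of adult liver, gave 4.79, 4.84 and 4.4 against 2.67, 3.09 and 2.91 (1.79 ± 0.19, adjusted p = 7.35e-06), but its mean lay below the 40th percentile in both cultures, so its fold rests on dim signal. CYP2E1, a P450 that oxidizes acetaminophen, lay near the 40th percentile in both cultures and differed by -0.24 ± 0.08 (adjusted p = 0.0285). This call was lost without microsystem control 1, microsystem control 2, Petri control 1 or Petri control 3. It was also lost in a fit of the 6 control arrays alone (adjusted p = 0.0712), after quantile normalization and with array weights. CYP1A2, the closest relative of CYP1A1, did not pass at 0.31 (adjusted p = 0.0842). The count of 4 lower members was 2 without microsystem control 1, Petri control 1 or Petri control 3.

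Transcripts of the receptor that drives CYP1A1 and of its partner were lower, and the activity of the receptor was not measured. AHR, the ligand-binding receptor for CYP1A1 inducers, was lower in the microsystem at 9.0, 8.97 and 9.02 against 9.92, 10.01 and 10.03, a difference of -0.99 ± 0.09 (adjusted p = 1.61e-06). Its partner ARNT was lower (-0.81 ± 0.09), and TIPARP, another receptor target, did not pass at 0.20 (adjusted p = 0.173). Of the nuclear receptors and sensors, 14 of 21 listed genes were tested, and of these 1 was higher, 6 were lower and 7 did not pass. The glucocorticoid receptor gene NR3C1 gave 7.87, 7.98 and 7.88 against 9.26, 9.54 and 9.59 (-1.55 ± 0.10), and PPARG, a lipid-sensing receptor, was lower (-1.09 ± 0.12). NR1D1 (-1.23 ± 0.18) and NR1D2 (-0.92 ± 0.14), repressors of the circadian clock, were lower as well. The 1 higher receptor, THRB (0.37 ± 0.11), no longer passed without microsystem control 2 or Petri control 3, and without microsystem control 3 the higher ones numbered 2.

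Conjugation and export genes were mostly higher where they passed. Of phase II enzymes, which attach polar groups to drugs, 16 of 31 listed ones were tested, and of these 11 were higher, 0 were lower and 5 did not pass, and the median was 0.54. Leaving out microsystem control 2 gave 1 lower member. MGST1, a membrane glutathione transferase, gave 9.44, 9.35 and 9.37 in the microsystem and 7.52, 7.53 and 7.38 in Petri dishes (1.91 ± 0.11, adjusted p = 1.26e-07), with both groups tight. The thiopurine methyltransferase gene TPMT (1.16 ± 0.11), the glucuronosyltransferase gene UGT2B7 (0.88 ± 0.13, below the 40th percentile in Petri dishes) and the sulfotransferase genes SULT2A1 (0.85 ± 0.19) and SULT1A1 (0.81 ± 0.12) were also higher. Of drug transporters, 12 of 17 listed genes were tested, and of these 7 were higher, 2 were lower and 3 did not pass. The efflux pump genes ABCG2 (1.16 ± 0.15), ABCC2 (0.95 ± 0.11) and ABCC3 (0.87 ± 0.09), the sterol transporter gene ABCG8 (0.89 ± 0.10) and the organic anion transporter gene SLC22A7 (0.92 ± 0.17) led them. The lower transporters numbered 1 instead of 2 without any one of microsystem control 1, microsystem control 2, microsystem treated 2 and the 3 Petri control arrays.

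NRF2 targets, which serve glutathione synthesis and the removal of electrophiles, were higher throughout most of the list. Of them, 23 of 27 listed genes were tested, and of these 20 were higher, 1 was lower and 2 did not pass, 8 of the higher ones by at least 2-fold, with a median of 0.88. GCLM, the regulatory partner of glutamate-cysteine ligase in the glutathione pathway, gave 8.14, 7.99 and 8.3 against 6.1, 6.26 and 6.33 (1.91 ± 0.12, adjusted p = 1.9e-07), and NQO1, a quinone reductase, gave 12.31, 12.32 and 11.99 against 10.94, 10.62 and 10.65 (1.48 ± 0.12). Each microsystem array was more than 1 log2 unit above each Petri array in both genes. SLC7A11, the cystine importer, was higher by 1.39 ± 0.25 but varied in Petri dishes (6.97, 8.03 and 6.98), and HMOX1, the heme-degrading enzyme, was higher by 0.97 ± 0.12. AKR1C2 was higher by 1.49 ± 0.12. GCLC, the catalytic partner of GCLM, did not pass (-0.06, adjusted p = 0.545), and NFE2L2, which encodes NRF2 itself, was the 1 lower member (-0.59 ± 0.09). The list counts the regulators NFE2L2 and KEAP1 beside the targets. With the 1.5-fold null, 8 members were higher. EPHX1, NQO1 and ABCC2 are counted in this list and in those of drug metabolism or transport.

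Cholesterol synthesis had the highest share of higher genes among the 40 lists. Of 25 listed genes, 18 were tested, 16 were higher, 0 were lower and 2 did not pass, with 11 higher by at least 2-fold and a median of 1.15. HMGCS1, which makes the precursor of mevalonate, gave 10.47, 10.46 and 10.38 in the microsystem and 9.26, 8.85 and 8.84 in Petri dishes (1.45 ± 0.11, adjusted p = 6.24e-07). ACAT2, a thiolase at the head of the pathway, gave 10.44, 10.59 and 10.42 against 8.79, 8.61 and 8.5 (1.85 ± 0.11), and NSDHL, a late enzyme of sterol ring processing, gave 9.15, 9.12 and 8.97 against 7.72, 7.55 and 7.63 (1.44 ± 0.10). The 2 groups stood apart on every array in these genes. MVK, mevalonate kinase (1.4 ± 0.12), and IDI1, the isopentenyl isomerase (1.29 ± 0.08), were higher too. DHCR7 (0.22, adjusted p = 0.0563) and SREBF2, the gene of the factor that drives the pathway (0.20, adjusted p = 0.123), did not pass.

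The CCAAT box, searched on both strands, occurred in 81.2% of the cholesterol genes with a promoter (13 of 16) and in 34.6% of all 10404 promoters. The core TCACNCCAC, used here for the sterol response element, occurred in 1 of 16 (6.25%) and in 0.807% of all. The promoters of HMGCS1, FDPS and NSDHL are shown because each holds several CCAAT boxes, in capitals on either strand. FDPS, the farnesyl diphosphate synthase gene, was higher by 1.14 ± 0.08.
HMGCS1 (chr5:43313413-43313662, minus strand): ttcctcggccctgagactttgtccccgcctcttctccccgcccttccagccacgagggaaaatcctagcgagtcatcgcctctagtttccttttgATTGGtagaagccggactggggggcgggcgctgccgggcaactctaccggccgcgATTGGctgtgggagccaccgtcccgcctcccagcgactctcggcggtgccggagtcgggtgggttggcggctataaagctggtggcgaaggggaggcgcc
FDPS (chr1:155308616-155308865, plus strand): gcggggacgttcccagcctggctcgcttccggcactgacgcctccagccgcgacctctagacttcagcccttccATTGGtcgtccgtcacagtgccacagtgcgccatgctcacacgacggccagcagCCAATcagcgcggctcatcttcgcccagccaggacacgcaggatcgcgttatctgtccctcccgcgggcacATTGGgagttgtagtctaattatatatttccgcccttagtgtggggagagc
NSDHL (chrX:152830813-152831062, plus strand): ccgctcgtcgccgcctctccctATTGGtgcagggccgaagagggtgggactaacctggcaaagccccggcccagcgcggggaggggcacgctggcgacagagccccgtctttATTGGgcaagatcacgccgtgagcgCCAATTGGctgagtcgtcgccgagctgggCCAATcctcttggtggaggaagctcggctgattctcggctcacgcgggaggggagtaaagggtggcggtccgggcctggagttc

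Genes of fatty acid and triglyceride synthesis that passed were higher. Of this list, 20 of 21 listed genes were tested, and of these 14 were higher, 0 were lower and 6 did not pass, and the median was 0.75. The acyltransferase gene GPAM, which starts glycerolipid synthesis, gave 9.54, 9.55 and 9.82 against 7.96, 8.07 and 7.25 (1.87 ± 0.20), and FASN, fatty acid synthase, gave 10.86, 10.92 and 10.73 against 9.93, 9.48 and 9.51 (1.19 ± 0.15). Both were separate between the cultures, with the wider spread in Petri dishes. FADS2, a desaturase (1.34 ± 0.14), PNPLA3, a lipid-droplet hydrolase (1.17 ± 0.16), and ACLY, which supplies cytosolic acetyl-CoA (1.13 ± 0.11), were higher too. SREBF1 (-0.03) and DGAT2 (0.01) did not pass. Leaving out microsystem control 1 or Petri control 1 gave 1 lower member, and the 1.5-fold null left 6 higher.

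Genes of fatty acid breakdown that passed were mostly higher too. Of 28 listed oxidation and ketogenesis genes, 20 were tested, 14 were higher, 1 was lower and 5 did not pass, with a median of 0.47. BDH1, the ketone body dehydrogenase (1.8 ± 0.27), ETFDH, which passes electrons from acyl-CoA oxidation to the respiratory chain (1.5 ± 0.12), EHHADH, a peroxisomal enzyme (1.25 ± 0.17), and CREB3L3, a liver transcription factor of lipid metabolism (1.21 ± 0.21), were the leading ones. ANGPTL4, an inhibitor of lipoprotein lipase, was the lower one, at 5.95, 5.56 and 5.87 against 7.76, 7.79 and 8.18 (-2.12 ± 0.15, adjusted p = 3.43e-07). It became 1 of 2 lower members without microsystem control 1 or Petri control 1. The 1.5-fold null left 3 higher.

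Lipoprotein genes that passed were mostly lower. Of them, 16 of 22 listed ones were tested, and of these 1 was higher, 7 were lower and 8 did not pass. APOL1 (-1.41 ± 0.22), CETP, the cholesteryl ester transfer protein (-1.11 ± 0.13), APOM (-0.87 ± 0.11), APOF (-0.85 ± 0.12) and APOC3 (-0.69 ± 0.17) were lower, and APOA4 was the higher one (0.39 ± 0.08), joined by another without microsystem control 3 or Petri control 1. APOB (0.30) and APOA1 (-0.17) did not pass. Of bile acid genes, only 10 of 19 were tested, and 6 were below the filter, among them the main synthesis enzyme gene CYP7A1. Of those tested, 1 was higher, 1 was lower and 8 did not pass, with a median of 0.02. SLC51A, a subunit of the basolateral bile acid exporter, was lower at 6.41, 6.43 and 6.77 against 8.44, 8.59 and 8.85 (-2.09 ± 0.17). KLB, the coreceptor for the hormone FGF19, gave 9.18, 9.2 and 7.84 against 7.62, 7.1 and 7.12 (1.46 ± 0.41, adjusted p = 0.0101), where microsystem control 3 is close to the Petri arrays, and without microsystem control 2 its adjusted p was 0.0505.

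In glucose production and storage, 2 arrestin-domain genes that respond to glucose metabolites were higher while PCK1 was lower. TXNIP, which limits glucose uptake, gave 11.03, 11 and 10.64 in the microsystem and 9.44, 8.0 and 8.84 in Petri dishes (2.13 ± 0.27, adjusted p = 3.94e-05), a rise like that of ARRDC4. PC, pyruvate carboxylase, was higher by 1.24 ± 0.15. PCK1, the enzyme that commits carbon to glucose, was lower at 9.69, 9.41 and 8.41 against 10.09, 10.04 and 10.16 (-0.92 ± 0.23, adjusted p = 0.00584, and -0.54 without microsystem control 3), and GBE1, the glycogen branching enzyme, was lower (-0.81 ± 0.12). The TXNIP values were the more variable in Petri dishes and the PCK1 values in the microsystem. Over the list, 14 of 17 listed genes were tested, and of these 3 were higher, 6 were lower and 5 did not pass. The 1.5-fold null left 0 lower.

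Secreted liver proteins were lower more often than higher. Of plasma proteins and coagulation factors, 34 of 40 listed genes were tested, and of these 3 were higher, 18 were lower and 13 did not pass, with a median of -0.33. AHSG, fetuin A, gave 11.82, 11.93 and 11.75 against 12.94, 12.91 and 12.89 (-1.08 ± 0.07, adjusted p = 2.41e-07), and heparin cofactor II, SERPIND1, gave 10.52, 10.73 and 10.9 against 12.14, 11.99 and 12.09 (-1.35 ± 0.11). The groups lay well apart in both. Vitronectin, VTN, was lower (-1.22 ± 0.11), and the fibrinogen chain genes FGA (-1.12 ± 0.28) and FGG (-0.93 ± 0.31) were lower with a wide spread in the microsystem, 7.68, 8.75 and 9.4 for FGG, whose call was lost without any 1 of the Petri control arrays and in a fit of the 6 control arrays alone. Without microsystem control 1, FGA differed by -0.74 and FGG by -0.46, the latter without passing. F11, coagulation factor XI, was higher by 1.26 ± 0.14.

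Albumin, the main secreted protein of hepatocytes, gave 13.12, 13.15 and 12.97 in the microsystem and 12.86, 12.82 and 12.73 in Petri dishes. The ALB difference was 0.28 ± 0.08 (adjusted p = 0.0129), with adjusted p = 0.0527 without microsystem control 2 and 0.0532 without Petri control 3. The fetal form AFP was higher by 0.49 ± 0.13 (adjusted p = 0.00815), and transthyretin, TTR, did not pass (-0.39 ± 0.18, adjusted p = 0.101).

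Complement and acute phase genes that passed were mostly lower. Of complement genes, 18 of 27 listed ones were tested, and of these 3 were higher, 9 were lower and 6 did not pass. C5, the precursor of an anaphylatoxin, gave 6.3, 6.02 and 7.12 against 9.16, 8.37 and 8.23 (-2.11 ± 0.28, adjusted p = 5.2e-05, and -2.43 without microsystem control 3), CD55, which protects cells from complement, was lower (-1.3 ± 0.13), and C8B (-1.08 ± 0.15). MBL2, a lectin that starts the cascade, was higher by 1.24 ± 0.26. CFB was lower (-0.82 ± 0.10) on the probe set used, but its other probe sets ranged from -0.94 to 0.55, so its direction is unsettled. Of acute phase genes, 16 of 20 listed ones were tested, and of these 0 were higher, 10 were lower and 6 did not pass, with a median of -0.42. HAMP, the iron hormone hepcidin, gave 5.69, 5.58 and 5.62 against 7.25, 8.15 and 7.87 (-2.13 ± 0.17, adjusted p = 7.83e-07). Each microsystem array was more than 1.5 log2 units below each Petri array. Ceruloplasmin, CP (-1.39 ± 0.16), ORM1 (-0.89 ± 0.24) and LCN2 (-0.64 ± 0.14) were lower as well.

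Transcription factors that define liver cells were split. Of them, 16 of 21 listed genes were tested, and of these 3 were higher, 9 were lower and 4 did not pass. ZHX2, a repressor of fetal liver genes including AFP, gave 8.48, 8.57 and 8.32 against 9.79, 9.75 and 9.62 (-1.26 ± 0.09, adjusted p = 3.43e-07), and FOXA2 was lower (-0.89 ± 0.12) and CEBPD (-0.57 ± 0.12). GATA4 was higher by 0.59 ± 0.12, beside CREB3L3 above. In amino acid metabolism, 22 of 32 listed genes were tested, and of these 6 were higher, 5 were lower and 11 did not pass. HAL, histidine ammonia-lyase, gave 4.4, 4.24 and 4.16 against 6.36, 6.4 and 6.31 (-2.09 ± 0.18), where all microsystem values were below the 40th percentile. MAT1A, the adult liver enzyme of S-adenosylmethionine synthesis, was higher at 10.04, 10.38 and 10.53 against 8.99, 8.75 and 8.7 (1.5 ± 0.14), and ASS1, a urea cycle enzyme, by 0.69 ± 0.14. The 5 lower genes became 3 without microsystem control 1 or any 1 Petri control array.

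Among cell cycle genes, those of DNA replication that passed were mostly higher and those of mitosis that passed mostly lower. Of DNA replication genes, 39 of 40 listed ones were tested, and of these 22 were higher, 2 were lower and 15 did not pass, with a median of 0.46, whereas of mitosis genes 35 of 36 listed ones were tested, and of these 2 were higher, 9 were lower and 24 did not pass. The lower mitosis genes are 25.7% of those tested, beside 18.3% of all genes, and the lists were not compared by a test. CDC6, which loads the replicative helicase, gave 8.18, 8.68 and 9.04 in the microsystem and 6.72, 7.23 and 7.07 in Petri dishes (1.63 ± 0.19, adjusted p = 1.63e-05). GINS1 (1.07 ± 0.18), GINS3 (0.95 ± 0.13), MCM6 (0.95 ± 0.17) and POLA2 (0.92 ± 0.12), all parts of the replication machinery, were higher. CDK1, the mitotic kinase, was lower at 6.83, 7.27 and 7.67 against 7.9, 7.99 and 7.97 (-0.70 ± 0.16, adjusted p = 0.00261), and so were NEK2 (-0.94 ± 0.15) and TTK (-0.72 ± 0.15), kinases of the spindle and its checkpoint. In each of these genes microsystem control 3 had the highest and microsystem control 1 the lowest of the microsystem values, in the higher replication genes and the lower mitosis genes alike. The proliferation marker MKI67 did not pass (0.11 ± 0.11, adjusted p = 0.461), but did at 0.26 without microsystem control 1 (adjusted p = 0.0355).

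The mitosis counts depended on single arrays. The lower genes rose in number from 9 to 17 without microsystem control 3, and the 2 higher ones fell to 1 without microsystem control 3, Petri control 1 or Petri control 2 and to 0 without microsystem control 2 or Petri control 3. CCNB2 (-0.54 ± 0.18) lost its call without microsystem control 1, Petri control 2 or Petri control 3, and NUF2 (-0.51 ± 0.15) without microsystem control 1 or Petri control 2. The 1.5-fold null left 1 replication gene higher and 0 mitosis genes lower. The 2 lower replication genes, CDT1 (-0.76 ± 0.13) and PRIM1 (-0.37 ± 0.14), became 1 when any 1 of the 12 arrays other than microsystem control 3 was left out.

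Targets of p53, the damage-responsive tumour suppressor, moved both ways. Of them, 24 of 26 listed genes were tested, and of these 8 were higher, 7 were lower and 9 did not pass. TIGAR, which diverts glucose from glycolysis, gave 7.6, 7.47 and 7.28 against 5.92, 6.04 and 5.96 (1.47 ± 0.10, adjusted p = 2.76e-07), and TP53INP1 (1.32 ± 0.16), TP53I3 (1.1 ± 0.10), FAS (0.69 ± 0.10), SPATA18 (0.64 ± 0.09) and the cell cycle inhibitor CDKN1A (0.59 ± 0.10) were higher. SESN2 (-0.63 ± 0.10), POLH (-0.56 ± 0.08) and AEN (-0.55 ± 0.10) were lower. Histone genes, whose products package new DNA, were higher where they passed: 12 of 16 listed ones were tested, and of these 10 were higher, 0 were lower and 2 did not pass, with a median of 0.85. H2BC12 gave 7.03, 7.26 and 6.11 against 4.22, 4.93 and 4.49 (2.26 ± 0.26), with a Petri mean below the 40th percentile, H2BC21 gave 10.46, 9.4 and 8.72 against 7.73, 7.55 and 7.24 (2.02 ± 0.38, 2.42 without microsystem control 3 and 1.55 without microsystem control 1), and H2BC8 (1.66 ± 0.20), H4C8 (1.07 ± 0.15) and H1-2 (0.95 ± 0.14) followed. The cultures did not overlap, and microsystem control 3 was the lowest microsystem array except in H1-2. Of 12 histone promoters, 11 held CCAAT (91.7%) and 9 held the TATA box TATAAA (75%), against 6.16% of all promoters for the latter. The median GC content was 45.8% in these histone promoters and 64.8% in all, and the motif shares were not adjusted for this composition.

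Protein quality control genes that passed were mostly higher, by less than 2-fold. Of unfolded protein response genes, 22 of 23 listed ones were tested, and of these 11 were higher, 4 were lower and 7 did not pass. The chaperone genes SDF2L1 (0.78 ± 0.10), MANF (0.76 ± 0.09), HYOU1 (0.71 ± 0.07) and HSPA5 (0.59 ± 0.09) were higher, while ERN1, the stress sensor, was lower (-0.74 ± 0.12). The 4 lower became 2 without microsystem control 1. Of cytosolic heat shock genes, 18 of 23 listed ones were tested, and of these 9 were higher, 0 were lower and 9 did not pass, with DNAJA1 (0.78 ± 0.09), DNAJB4 (0.73 ± 0.09), HSPH1 (0.72 ± 0.10) and HSP90AA1 (0.63 ± 0.10) in front. None of the members that passed reached 2-fold, and the 1.5-fold null left 0 of either list. The largest difference among the heat shock genes, 1.42, was that of a member that did not pass. The ATF4 program of amino acid shortage split: 27 of 29 listed genes were tested, and of these 6 were higher, 7 were lower and 14 did not pass. SLC6A9, a glycine transporter, was higher by 1.42 ± 0.15, and DDIT3 (-1.26 ± 0.21) and ATF3 (-1.18 ± 0.24), transcription factors of prolonged stress, were lower.

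Ribosomal, respiratory and lysosomal genes changed little or in both directions. Of ribosomal proteins, 25 of 30 listed genes were tested, and of these 0 were higher, 7 were lower and 18 did not pass, none by 2-fold. RPL10A was lower (-0.30 ± 0.09) and RPL13 (-0.33 ± 0.09), but another RPL13 probe set differed by 0.57. The 7 lower genes were 2 without microsystem control 1, 3 without Petri control 2 and 2 without Petri control 3, and 11 after quantile normalization. Of respiratory chain genes, 34 of 38 listed ones were tested, and of these 6 were higher, 2 were lower and 26 did not pass, and CYCS, cytochrome c, was the clearest rise at 8.18, 8.16 and 8.13 against 6.85, 7.13 and 7.07 (1.14 ± 0.10, adjusted p = 1.75e-06). NDUFB3 (0.73 ± 0.12), NDUFB10 (0.55 ± 0.10) and ATP5MC1 (0.58 ± 0.12) were higher and NDUFB5 was lower (-0.46 ± 0.09). The 2 lower were 1 without microsystem control 1 or Petri control 3. Of lysosome and autophagy genes, 25 of 28 listed ones were tested, and of these 9 were higher, 7 were lower and 9 did not pass. LIPA, the lysosomal acid lipase, gave 10.28, 10.57 and 10.17 against 8.7, 8.84 and 8.87 (1.53 ± 0.12), and the galactosidase gene GLA (1.21 ± 0.13), ATP6V0D1 of the proton pump (1.03 ± 0.11), SQSTM1 (0.90 ± 0.11) and MCOLN1 (0.80 ± 0.11) were higher.

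Genes of the actin cytoskeleton and of YAP that passed were mostly lower. Of them, 30 of 32 listed ones were tested, and of these 2 were higher, 17 were lower and 11 did not pass, with 6 lower by at least 2-fold and a median of -0.41. CCN2, a secreted matrix regulator, gave 9.4, 9.42 and 10.27 in the microsystem and 11.4, 11.28 and 11.41 in Petri dishes (-1.67 ± 0.22, adjusted p = 5.39e-05), CCN1, its relative, gave 7.43, 7.15 and 8.4 against 8.74, 9.36 and 9.62 (-1.58 ± 0.34), and the receptor kinase gene AXL gave 7.07, 6.79 and 6.76 against 8.35, 8.48 and 8.46 (-1.56 ± 0.15). Microsystem control 3 was the microsystem array nearest to the Petri arrays for CCN1 and CCN2, as for ANKRD1, but not for AXL. TAGLN, an actin-binding protein, was lower (-1.34 ± 0.44, adjusted p = 0.0232), a call lost without microsystem control 1, microsystem control 2, Petri control 2 or Petri control 3. ACTB, cytoplasmic actin, did not pass (-0.23 ± 0.10, adjusted p = 0.0616), and passed after quantile normalization (-0.25) and without Petri control 1 (-0.29). The 2 higher members, CNN3 (0.51 ± 0.10) and ACTA2 (0.24 ± 0.08), became 1 without microsystem control 2, microsystem control 3, Petri control 2 or Petri control 3. The 1.5-fold null left 4 lower.

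GGAATG, the letters that TEAD factors bind, occurred on either strand in 20% of the promoters of this list (5 of 25) and in 9.34% of all promoters. The promoters of CCN2 and ANKRD1 are shown because they hold 3 and 2 matches, in capitals.
CCN2 (chr6:131951373-131951622, minus strand): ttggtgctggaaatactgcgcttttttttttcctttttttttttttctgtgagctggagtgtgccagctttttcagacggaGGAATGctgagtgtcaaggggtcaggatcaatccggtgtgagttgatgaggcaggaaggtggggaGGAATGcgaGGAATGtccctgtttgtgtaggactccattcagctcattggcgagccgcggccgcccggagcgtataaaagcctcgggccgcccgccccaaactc
ANKRD1 (chr10:90921088-90921337, minus strand): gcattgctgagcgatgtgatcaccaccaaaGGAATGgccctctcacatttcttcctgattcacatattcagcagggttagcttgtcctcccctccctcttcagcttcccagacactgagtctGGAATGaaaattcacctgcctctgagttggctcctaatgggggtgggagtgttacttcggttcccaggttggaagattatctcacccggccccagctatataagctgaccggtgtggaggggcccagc

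Matrix and TGF-beta genes were lower where they passed, and junction genes that passed were mostly lower. Of matrix and crosslinking genes, 26 of 35 listed ones were tested, and of these 0 were higher, 11 were lower and 15 did not pass. The proteoglycan genes VCAN (-1.82 ± 0.40, and -2.26 without microsystem control 3), HSPG2 (-1.12 ± 0.11) and AGRN (-0.64 ± 0.10) and the crosslinking enzyme gene LOXL4 (-0.94 ± 0.18) were lower, beside LOX above, and the collagen genes COL1A1 (-0.10) and COL1A2 (-0.11) did not pass. Of epithelial junction and keratin genes, 23 of 30 listed ones were tested, and of these 1 was higher, 7 were lower and 15 did not pass. CDH1, E-cadherin, gave 8.21, 8.46 and 7.91 against 9.68, 9.17 and 9.09 (-1.12 ± 0.21), and claudin CLDN1 (-0.84 ± 0.18), desmosomal DSP (-0.82 ± 0.09) and DSG2 (-0.65 ± 0.10) and keratin KRT19 (-0.74 ± 0.13) were lower. TJP1, the 1 higher gene (0.25 ± 0.08), lost its call without microsystem control 1, microsystem control 2, Petri control 2 or Petri control 3, and 2 were higher without microsystem control 3. Of TGF-beta and BMP feedback genes, 22 of 26 listed ones were tested, and of these 0 were higher, 11 were lower and 11 did not pass. SMAD9 (-1.76 ± 0.12), TGFBI (-1.1 ± 0.14), the activin antagonist gene FST (-0.98 ± 0.17), SMAD7 (-0.93 ± 0.10) and BMP4 (-0.85 ± 0.12) were lower.

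Signalling genes were mixed. Of immediate early and ERK feedback genes, 28 of 29 listed ones were tested, and of these 6 were higher, 9 were lower and 13 did not pass: FOS (1.13 ± 0.30) and KLF10 (0.83 ± 0.10) were higher beside EGR1, and the phosphatase gene DUSP1 (-1.52 ± 0.30) and MYC (-0.67 ± 0.14) were lower. Of NF-kB targets, 15 of 23 listed ones were tested, and of these 1 was higher, 5 were lower and 9 did not pass: the chemokine gene CCL20 (-1.1 ± 0.25) and the inhibitor genes TNFAIP3 (-0.84 ± 0.15) and NFKBIA (-0.59 ± 0.17) were lower and IRF1 was higher (0.69 ± 0.17). Of interferon response genes, 15 of 29 listed ones were tested, and of these 4 were higher, 6 were lower and 5 did not pass, with IFITM1 lower (-1.16 ± 0.15) and the antigen-processing gene TAP1 (1.08 ± 0.13), OAS3 (0.97 ± 0.12), OAS1 (0.87 ± 0.19) and PSMB8 (0.62 ± 0.09) higher. Of Wnt targets, 19 of 22 listed ones were tested, and of these 4 were higher, 4 were lower and 11 did not pass, with the Wnt antagonist gene DKK4 (1.13 ± 0.13, below the 40th percentile in Petri dishes), RHBG (0.80 ± 0.15) and LGR5 (0.75 ± 0.12) higher and NOTUM, which inactivates Wnt proteins, lower (-0.86 ± 0.10). The 4 lower Wnt targets were 2 without microsystem control 2 or Petri control 3.

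Genes of 3 insulin-like growth factor binding proteins were lower. IGFBP3 gave 6.14, 6.35 and 6.27 in the microsystem and 8.3, 8.06 and 8.2 in Petri dishes (-1.94 ± 0.09, adjusted p = 1.72e-08), with 2 tight groups. IGFBP2 was lower (-1.15 ± 0.25), and IGFBP1, a liver protein that falls with insulin, (-0.65 ± 0.19, adjusted p = 0.0147, and 0.0761 without microsystem control 2). FOXO1, a factor restrained by insulin, was lower (-0.75 ± 0.13) and PIK3R1, a regulatory subunit of PI3-kinase, was higher (0.79 ± 0.17). Over the axis, 13 of 20 listed genes were tested, and of these 2 were higher, 7 were lower and 4 did not pass, and the 2 higher were 1 without microsystem control 1, microsystem control 2, Petri control 2 or Petri control 3. Of circadian clock genes, 17 of 19 listed ones were tested, and of these 0 were higher, 9 were lower and 8 did not pass. NFIL3, a repressor of clock output, gave 7.84, 7.93 and 8.05 against 9.88, 10.22 and 10.29 (-2.19 ± 0.14, adjusted p = 1.69e-07), and PER2 (-1.23 ± 0.10) and BHLHE40 (-1.24 ± 0.18) were lower beside RORA and NR1D1. The core activator genes BMAL1 (0.09) and CLOCK (0.12) did not pass. RORA and BHLHE40 are also on the HIF list.

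Osmotic response genes moved both ways, and 3 osmolyte transporter genes were among the higher ones. Of the osmotic response list, 12 of 14 listed genes were tested, and of these 6 were higher, 5 were lower and 1 did not pass. Beside SLC6A12, the inositol transporter gene SLC5A3 gave 11.11, 10.39 and 9.03 against 8.68, 8.21 and 8.3 (1.78 ± 0.40, and 2.35 without microsystem control 3), and the taurine transporter gene SLC6A6 gave 9.67, 9.49 and 9.32 against 8.11, 7.83 and 7.73 (1.6 ± 0.12, adjusted p = 4.28e-07). AQP3, a water and glycerol channel, was higher by 1.58 ± 0.32. Microsystem control 3 was the lowest microsystem array in these genes except AQP3. SGK1, a kinase of salt handling, was lower (-1.11 ± 0.25), and NFAT5, the gene of the osmotic transcription factor, was lower too (-0.48 ± 0.16). The 5 lower members were 3 without both microsystem arrays numbered 3.

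Metal response genes showed how far 1 array can decide a count. Of them, 20 of 23 listed ones were tested, and of these 4 were higher, 5 were lower and 11 did not pass, and the 4 higher became 10 without microsystem control 3 and 2 without microsystem control 1, microsystem control 2, Petri control 1 or Petri control 2. The metallothionein MT1G, which binds zinc and copper, gave 11.55, 12.01 and 10.61 in the microsystem and 10.05, 10.7 and 10.77 in Petri dishes (0.89 ± 0.33, adjusted p = 0.0416). Its groups overlapped through microsystem control 3, without which the difference was 1.28 (adjusted p = 0.0033), and the call was lost when any other control array was left out. MT2A (0.36), MT1X (0.58), MT1F (0.62) and MT1E (0.48) did not pass and were also lowest in microsystem control 3 among the microsystem arrays. SLC39A14, a zinc and iron importer, was higher by 0.89 ± 0.19, and the iron-sensing receptor gene TFR2 was lower (-0.64 ± 0.11).

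**Figure D4:**
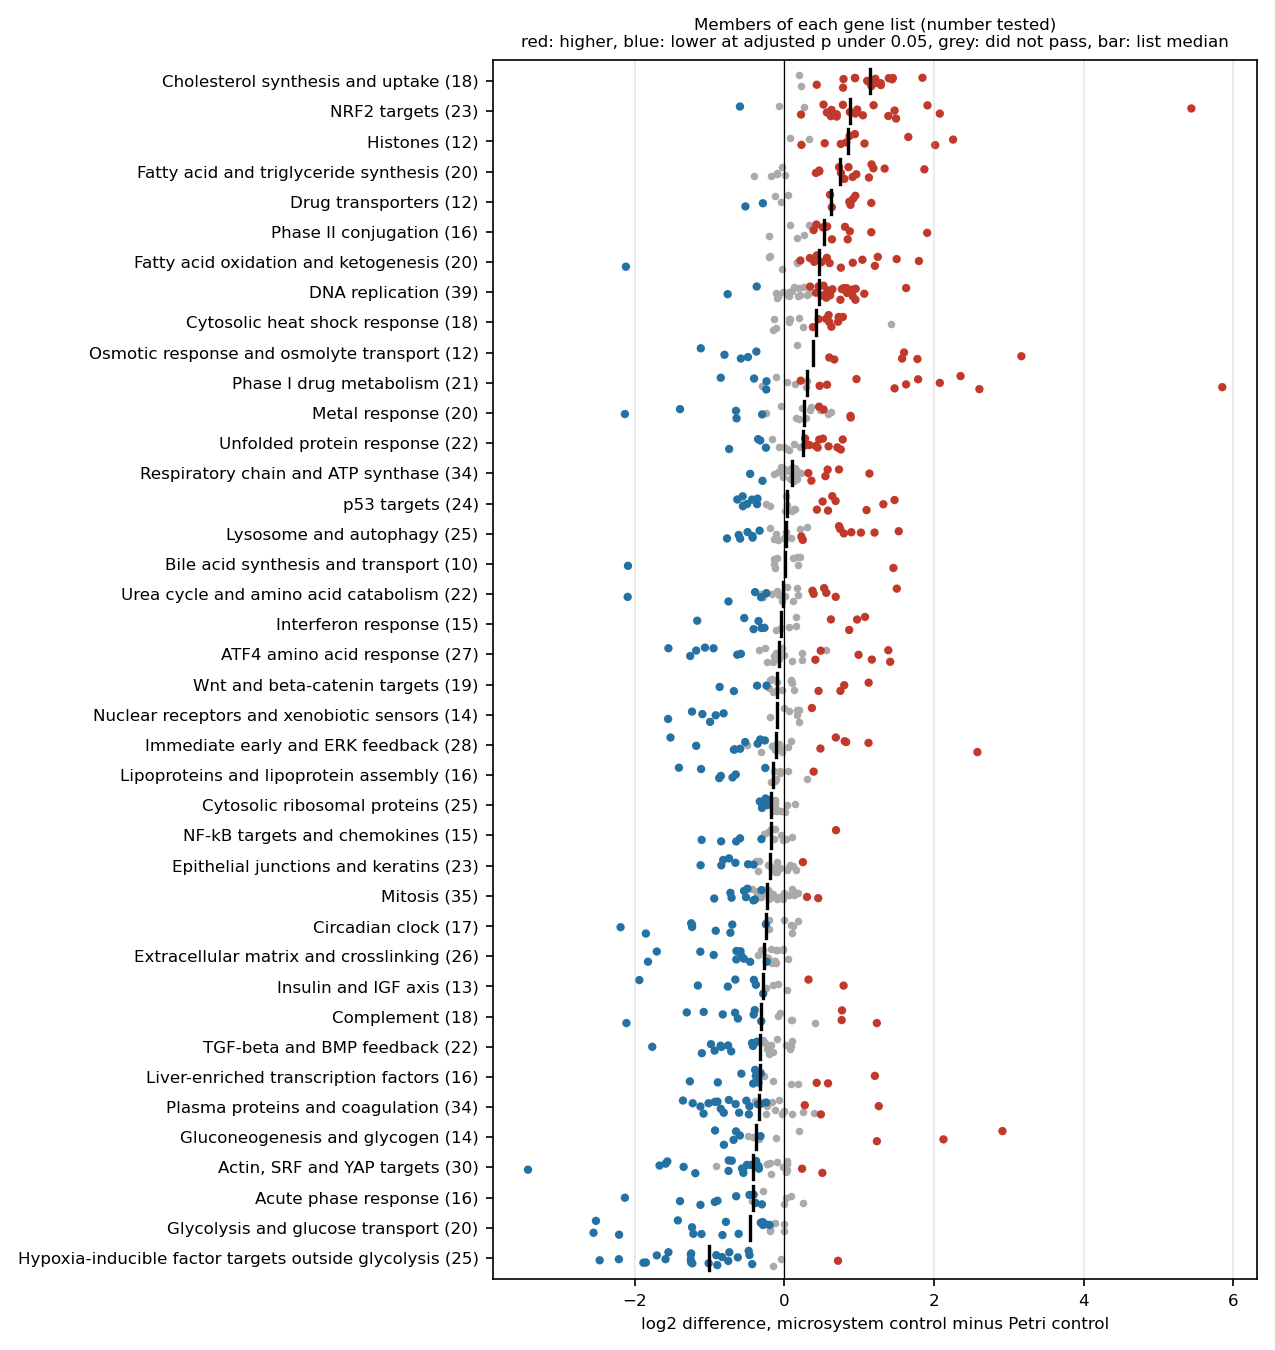
Difference between cultures (log2 microsystem minus Petri, untreated cells, x axis) of every tested member of the 40 gene lists (rows, ordered by median, number tested in parentheses), 1 point per gene in red where higher, blue where lower and grey where the gene did not pass, with a black bar at the list's median. Cholesterol synthesis has 88.9% of its tested members higher, and the HIF list has 88% lower.

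Marker genes were checked against the label of the cells. All 9 measured hepatocyte markers were above the 40th percentile on all 6 arrays, 2 of them higher in the microsystem and 3 lower. Of endothelial markers, PECAM1, VWF, KDR and TEK were above it on none of the 6 arrays, and CLEC4G on all, and the log2 of the list's summed intensity was 7.35 to 7.48 in the microsystem and 7.51 to 7.64 in Petri dishes, with no marker passing the test. Of leukocyte markers, PTPRC, CD3E and MS4A1 were above it on none, and CD68, CD14 and LYZ on all, with a summed level of 12.47 to 12.67 against 12.35 to 12.39, 1 marker higher and 2 lower. Of fibroblast and stellate markers, DCN and LUM were above it on none, and COL1A1, COL1A2, COL3A1, PDGFRB and ACTA2 on all, with a summed level of 10.03 to 10.19 against 9.96 to 9.99 and 1 marker higher. Of 2 measured erythroid markers, HBB was above it on none and ALAS2 on all, with a summed level of 5.64 to 5.65 against 5.62 to 5.99. Among 6 cholangiocyte markers, KRT7, KRT19, SOX9, EPCAM and SPP1 were above it on all and CFTR on none. The log2 of their summed intensity was 12.763 to 12.911 in the microsystem and 11.713 to 11.938 in Petri dishes, with 1 marker higher, SPP1, and 2 lower. The part of these markers in the results was not tested. In these bulk samples, fewer cells of a state and less RNA per cell cannot be told apart.

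The acetaminophen-treated arrays give the same culture contrast in other samples. They passed 5467 genes (41.4%), of which 2977 were higher in the microsystem (22.6%) and 2490 lower (18.9%). The 2 contrasts share no array, although the choice of probe sets, the filter and the pooled spread of the fit rest on all 12 arrays, and the description of Petri treated 3 carries an asterisk that is not explained. Of the 614 genes past the test and at least 2-fold in untreated cells, 613 had the same sign and 597 passed in the same direction (97.2%). Of all 5926 that passed, 5793 had the same sign (97.8%), 4378 passed in the same direction (73.9%) and 7 passed in the opposite one. Over all genes tested, 83.9% had the same sign and 40.6% had the same sign and passed in treated cells, and of those that did not pass in untreated cells 72.7% had the same sign. Across all 13199 genes, which are not independent replicates, the differences correlated with r = 0.912. The medians of treated and untreated cells were -1.03 and -1.01 for HIF targets and -0.52 and -0.46 for glycolysis. For cholesterol synthesis they were 1.39 and 1.15, and for NRF2 targets 0.89 and 0.88. Medians lay further apart for DNA replication (0.08 and 0.46). Its higher genes numbered 13 in treated and 22 in untreated cells, and its lower ones 5 and 2. Medians also lay further apart or differed in sign for p53 targets (-0.35 and 0.03, with 13 lower in treated and 7 in untreated cells). The same held for the osmotic list (-0.0020 and 0.39) and the ATF4 list (0.18 and -0.07). The differences between these medians were not tested. CYP1A1 differed by 5.25 and AKR1B10 by 4.73 in treated cells.

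The test of the difference between these culture effects passed 4 genes (0.0303%), and 970 had an unadjusted p under 0.05. The count was 12 without microsystem control 1, 13 without microsystem control 3, 2 without Petri treated 3, and 1 without microsystem control 2, microsystem treated 1, Petri control 2, Petri control 3, Petri treated 1 or Petri treated 2. Among genes called in untreated cells, these were AGTR1, the angiotensin receptor gene, and HSPA4L, a heat shock protein gene. AGTR1 gave 5.6, 5.55 and 5.4 in the microsystem and 6.8, 6.97 and 6.87 in Petri dishes without treatment (-1.36 ± 0.09), and 5.67, 5.62 and 5.7 against 6.12, 6.09 and 6.34 with treatment (-0.52). The Petri values were the ones nearer to the microsystem under treatment. Several p53 targets and others had smaller differences in treated cells, such as TP53I3 at 0.31 against 1.1 and TXNIP at 0.77 against 2.13, and IGFBP1 had the opposite sign at 0.86 against -0.65, but their differences between contrasts did not pass (adjusted p = 0.0776, 0.386 and 0.0776).

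**Figure D5:**
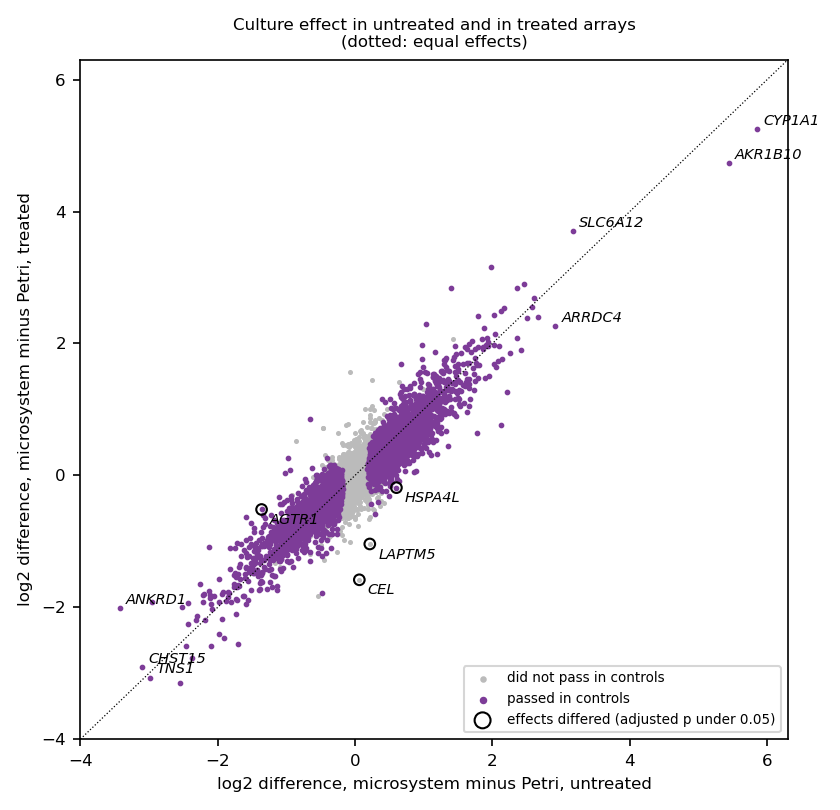
Culture difference in acetaminophen-treated cells (y axis, log2 microsystem minus Petri) against that in untreated cells (x axis), 1 point per gene for 13199 genes, with the line of equality. Genes with large differences lie near the line, with r = 0.912 over all genes, and the 4 genes whose difference between contrasts passed are marked.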

How the data were processed

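The authors deposited log2 intensities per probe set, which RMA in the program Affymetrix Expression Console had produced according to the submitters' processing notes. Neither the program's version nor a build is stated there. RMA equalizes the distributions of arrays normalized together, so a change in total RNA per cell would not show. The deposited log2 values were used as they are. Of 32321 probe sets, 19158 had 1 symbol in the array annotation, 1388 several and 11775 none here, and 637 genes had more than 1 probe set.

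With 1 coefficient for each group, all 12 arrays entered a linear model in limma 3.58.1 (R 4.3.3), with contrasts and empirical Bayes moderation (8 residual and 5.35 prior degrees of freedom). Tests were two-sided. The procedure was tested on simulated data. Array medians lay between 5.556 and 5.629, and the number of arrays limits the precision.

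Named genes are the 12 largest rises and 12 largest falls past the threshold without overlap, up to 5 members per list with the largest difference past it, 12 fixed genes and the genes whose difference of culture effects passed. HNF4A, one of the fixed genes, had no single-symbol probe set here. The comparison, the 40 lists (1001 symbols, 801 tested) and the rule were chosen with earlier results of these data known. Motifs were searched in RefSeq promoters of GRCh38.p14. Alternatives were a replicate block, the 6 arrays alone, quantile normalization, equal medians, other filters, the mean of probe sets, an intensity trend, array weights, a 1.5-fold null and leaving out arrays. Correlating deviations from the group means between same-numbered control arrays of the 2 cultures gave r = 0.18, -0.034 and 0.13. Differently numbered arrays gave -0.23 to 0.17. With 3 arrays per group, these values cannot decide whether the numbers pair the samples.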

Additional observations from a re-analysis of the deposited data

Results flagged for a closer look

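In 4 genes the culture difference itself differed between treated and untreated cells by limma's test of that difference. The CEL gene, which encodes a bile salt-activated lipase, gave 6.71, 6.95 and 6.4 in treated microsystem cells and 8.18, 8.27 and 8.38 in treated Petri cells, against 5.82, 6.14 and 5.81 and 5.87, 5.76 and 5.95 without treatment. Its culture difference was 0.06 in untreated and -1.58 in treated cells, a change of -1.65 ± 0.19 (adjusted p = 0.00762). LAPTM5, a lysosomal membrane protein, went from 0.21 to -1.04, a change of -1.25 ± 0.18 (adjusted p = 0.0369), and its untreated values lie near the 40th percentile of the arrays. HSPA4L went from 0.60 to -0.19, a change of -0.79 ± 0.11 (adjusted p = 0.0369), and AGTR1 from -1.36 to -0.52, a change of 0.84 ± 0.12 (adjusted p = 0.0369).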

How the results depend on the processing

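For culture in untreated cells, the genes passing numbered 4904 to 6023, the higher ones 2868 to 3567 and the lower ones 1918 to 2456 when single arrays were left out, and 58% to 61.8% of those passing were higher. Quantile normalization gave 54.3% higher against 59.1%. No scaling moved the median of all genes by over 0.1. With a 1.5-fold null, the passing genes numbered 571 (306 higher and 265 lower) in untreated cells and 500 (276 higher and 224 lower) in treated cells, since that null is stricter. The 4 genes whose culture difference changed with treatment became 18 with the replicate block, 7 with quantile normalization, 6 with equal array medians, 10 with an intensity trend, 54 with array weights, 0 with limma's 1.5-fold null (20 at an unadjusted p under 0.05), 11 without both microsystem arrays numbered 3, and 1 to 13 when single arrays were left out, and the cause was not tested. The replicate block gave 6284 passing genes in untreated cells against 5926, and under it TTR (-0.39, adjusted p = 0.0236) and ACTB (-0.23, adjusted p = 0.0397) passed. RPL13 reversed to 0.13 with the mean of its probe sets. Of the values of named genes under alternatives, 4661 kept direction and side of the threshold, 156 no longer passed, 6 newly passed and 1 reversed. The arrays give no counts, so precision is limited by 3 arrays per group, and genes near the 40th percentile are measured close to background.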

Other observations

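Classes of transcripts differed in their counts. Of 12417 protein-coding genes tested, 27.1% were higher in the microsystem and 18.6% lower. The 131 small nucleolar RNA genes, which guide chemical modification of ribosomal RNA, had a median difference of -0.14. Of these, 21 were higher (16%) and 36 were lower (27.5%). Of 301 long noncoding RNA genes, 54 were higher (17.9%) and 26 lower (8.64%). Over all genes tested, the shares were 26.5% higher and 18.3% lower. SNORD115-44, a member of a family of near-identical copies that was chosen after its values were seen, gave 5.19, 5.47 and 5.18 in the microsystem and 7.42, 7.4 and 6.74 in Petri dishes (-1.91 ± 0.25), and its assignment to 1 copy is uncertain.

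Counts varied with signal strength. With genes parted into 5 equal bins by mean level, in the dimmest bin 14.4% were higher and 10.2% lower in the microsystem, and in the brightest bin 29.6% were higher and 26% lower. Above the 40th percentile on all 3 microsystem control arrays and on 0 Petri control arrays were 79 genes, and 39 genes showed the converse. These are counts only, because the choice of the genes fixes their direction.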
